A study of Mus musculus with 2 samples.

Results

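Fibroblasts that expressed Tnmd or Chad were examined in 2 single-cell RNA-seq libraries prepared from the retinal pigment epithelium (RPE), choroid and sclera of the mouse eye. A cell was taken as a fibroblast with at least 5 UMIs (unique molecular identifiers, each marking 1 RNA molecule) and 2000 CPM (UMIs per 1000000 UMIs of the cell) of Dcn, the collagen-binding proteoglycan decorin, and with fewer than 10 UMIs of the RPE gene Rpe65. Of these, cells with fewer than 2 UMIs of the corneal proteoglycan gene Kera and fewer than 3 UMIs of the chemokine genes Cxcl9 and Cxcl10 together were kept, and those with at least 3 UMIs of Tnmd and Chad together are called Tnmd/Chad fibroblasts here. The rule found 1097 such cells among 19821 fibroblasts and 36030 deposited cells.

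Both groups were male C57BL/6J mice aged 3 months with no other allele named. All were given Zoletil and xylazine for anesthesia, phenylephrine and tropicamide eye drops to widen the pupil, and an antibiotic ointment (Tarivid). The control mice received PBS under the retina and the Dox mice received 1 µl of doxorubicin at 100 ng/µl, a DNA-damaging drug, and the eyes were taken 7 days later. Cells from 10 eyes of 5 mice were pooled per group, so each condition was 1 library. No test was therefore possible, and an effect of the drug cannot be told apart from any other difference between the pools. The samples are labelled as RPE cells, but choroid and sclera were kept in the dissection. The control library held 20381 cells and 117731270 UMIs, and the Dox library 15649 cells and 103997248 UMIs. There were 441 barcodes present in both libraries, and no barcode belonged to a Tnmd/Chad fibroblast in both of them, although 15 of those in control and 10 of those in Dox occurred among the barcodes of the other library. Intervals in parentheses are at 95% and cover counting error only, by the Clopper-Pearson method for shares, the exact Poisson for CPM values and the exact conditional binomial for ratios of CPM, with 0.5 UMI added to each count in a ratio.

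Tnmd encodes tenomodulin, a membrane glycoprotein of tendon and ligament cells, and Chad encodes chondroadherin, a leucine-rich repeat protein of cartilage and tendon that binds collagen and integrins. In tendon, cells aligned with the tissue load lay down parallel fibrils of type I collagen, whose thickness is set by small leucine-rich proteoglycans and by collagens that sit on the fibril surface. The sclera is a dense type I collagen tissue too, and the tendons of the eye muscles insert into it.

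The 2 genes that define the cells lie on different chromosomes, Tnmd at chrX:133850980-133865577 and Chad at chr11:94565047-94569127, both protein-coding and on the plus strand (GENCODE vM21, GRCm38, the assembly also called mm10). The 250 bases before each RefSeq start (GRCm38.p6, plus strand, chrX:133850758-133851007 for Tnmd and chr11:94564797-94565046 for Chad) are shown because both genes were read out in the same cells, and capitals mark CANNTG, the E-box letters that basic helix-loop-helix factors such as scleraxis bind.
Tnmd: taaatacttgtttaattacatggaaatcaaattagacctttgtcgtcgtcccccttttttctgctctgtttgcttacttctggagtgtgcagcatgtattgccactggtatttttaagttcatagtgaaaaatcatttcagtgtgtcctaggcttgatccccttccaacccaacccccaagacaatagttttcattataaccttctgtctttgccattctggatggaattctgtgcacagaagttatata
Chad: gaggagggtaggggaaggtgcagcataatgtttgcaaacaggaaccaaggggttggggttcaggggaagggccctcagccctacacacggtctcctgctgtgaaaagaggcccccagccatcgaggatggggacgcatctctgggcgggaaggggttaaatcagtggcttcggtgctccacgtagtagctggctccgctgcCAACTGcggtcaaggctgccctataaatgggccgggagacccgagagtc
The Chad window held 1 such match and the Tnmd window held 0. Of 32851 RefSeq promoter windows of the same length, 66.2% held CANNTG, which reads the same on both strands, so that 1 match is common.

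Tnmd/Chad fibroblasts made up 642 of 11464 fibroblasts in control, a share of 5.60% (5.19 to 6.04), and 455 of 8357 in Dox, a share of 5.44% (4.97 to 5.95). The 2 intervals overlapped. The comparison group, called other fibroblasts, met the same limits on Kera, Cxcl9 and Cxcl10 but had fewer than 3 UMIs of Tnmd and Chad, and held 8774 cells in control and 6333 in Dox. A further 56 cells in control and 35 in Dox had 3 UMIs of Tnmd and Chad but were left out by the Kera or Cxcl limits. The 642 and 455 Tnmd/Chad fibroblasts held 5534862 and 3959800 UMIs in all. They were the deeper cells, with a median of 8218.5 UMIs against 4800.5 in control and 8719 against 5397 in Dox, and a rule of 3 UMIs favours deep cells. Their median mitochondrial share was 1.36% in control and 1.22% in Dox, against 1.33% and 1.20% in other fibroblasts.

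The genes of the rule are given as a description. Tnmd stood at 644 CPM in control and at 609 CPM in Dox, and Chad at 1205 and 1475 CPM, against 7.29 and 6.85 CPM of Tnmd and 12.9 and 12.3 CPM of Chad in other fibroblasts. A cell held a median of 8 UMIs of both genes together in either library, and at most 163 in control and 188 in Dox. Cells of other types with fewer than 2 UMIs of Dcn were counted beside them, a limit that also removed cells carrying fibroblast RNA. Of these, 0 of 851 Rpe65-rich cells in control (a count of 0, taken as at most 3 cells, allows up to 0.353%) and 1 of 1101 in Dox reached 3 UMIs, at median depths of 14447 and 18047 UMIs. Of 386 Ptprc-positive (leukocyte) cells in control and 267 in Dox none did, and of the Pmel or Mlana-positive (melanocyte) cells 3 of 3131 in control and 0 of 944 in Dox did. These cells were shallower, with median depths of 4889.5 and 5533 UMIs for the former and 2239 and 1382.5 UMIs for the latter, so that 3 UMIs were harder to reach. Among all cells outside the fibroblast rule, 63 in control and 27 in Dox reached 3 UMIs.

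The limit of 3 UMIs cut through a gradient. In control, 183 fibroblasts had 2 UMIs of Tnmd and Chad and 112 had 3, and in Dox 155 had 2 and 71 had 3. Itgbl1, which the rule did not use, stood at 138 CPM in control cells with no UMI of either gene, 334 CPM at 2 UMIs, 342 CPM at 3 UMIs and 795 CPM at 20 or more. Its level in Dox was 161, 334, 349 and 920 CPM in the same cells. Fmod followed the same order, with 29.3, 91.0, 171 and 1485 CPM in control and 29.9, 100.1, 127 and 2120 CPM in Dox. Cells just inside and just outside the limit were thus near each other in Itgbl1 but not in Fmod of control, and cells with 20 or more UMIs stood well above both in either gene. Lum, the gene of lumican, a proteoglycan of thin collagen fibrils, ran the other way in control from 2060 CPM at 0 UMIs to 1351 at 2, 1184 at 3 and 944 at 10 to 19, but stood at 1306 at 20 or more. In Dox it stood at 1941, 1486, 1402, 960.5 and 924 CPM in the same cells. The plot of CPM by the number of Tnmd and Chad UMIs shows these runs.

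**Figure D1:**
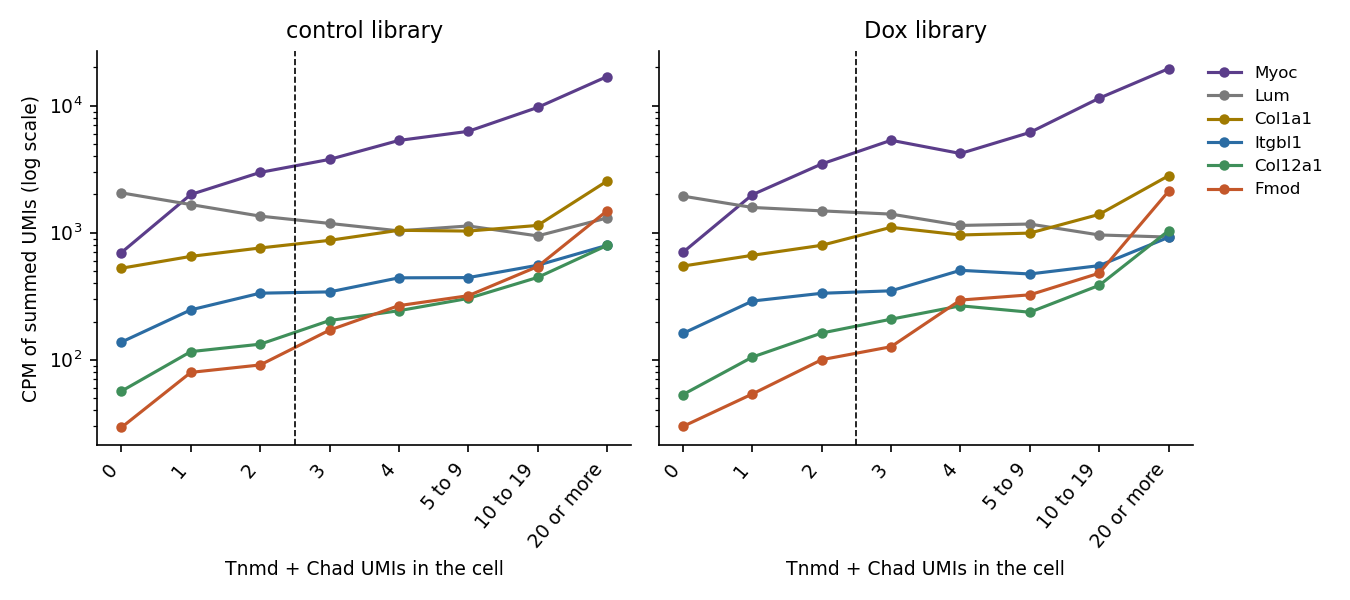
CPM of summed UMIs (log axis) of 6 genes in fibroblasts grouped by their Tnmd and Chad UMIs (x axis), in the control (left) and Dox (right) library; the dashed line marks the limit of 3 UMIs. Itgbl1 runs from 138 to 795 CPM in control and from 161 to 920 CPM in Dox with no step at the line.

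The markers that the rule had not used are given next. They were chosen with earlier results of these data known and are not independent evidence for the label of the cells. Itgbl1 (chr14:123659971-123975618, plus strand), which encodes a secreted protein related to integrin beta chains, stood at 543 CPM in Tnmd/Chad fibroblasts and 152 CPM in other fibroblasts of control, and at 615 and 176 CPM in Dox. In control its log2 ratio of CPM was 1.83 (1.77 to 1.90), and in Dox it was 1.80 (1.74 to 1.87). Col12a1 (chr9:79598991-79718831, minus strand), the gene of a collagen that sits on type I fibrils, stood at 440 against 63.6 CPM in control and 515 against 60.4 CPM in Dox, log2 ratios of 2.79 (2.71 to 2.87) and 3.09 (3.01 to 3.18). Both markers were higher in both libraries by more than the counting error. Pdgfra, a fibroblast receptor gene, was present at 126 CPM in control and at 114 CPM in Dox, and Lum, Col1a1 and Col3a1 were present too, so that the cells carried the genes of fibroblasts. No measurement gave a position in the eye, and the word scleral was not tested.

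**Figure D2:**
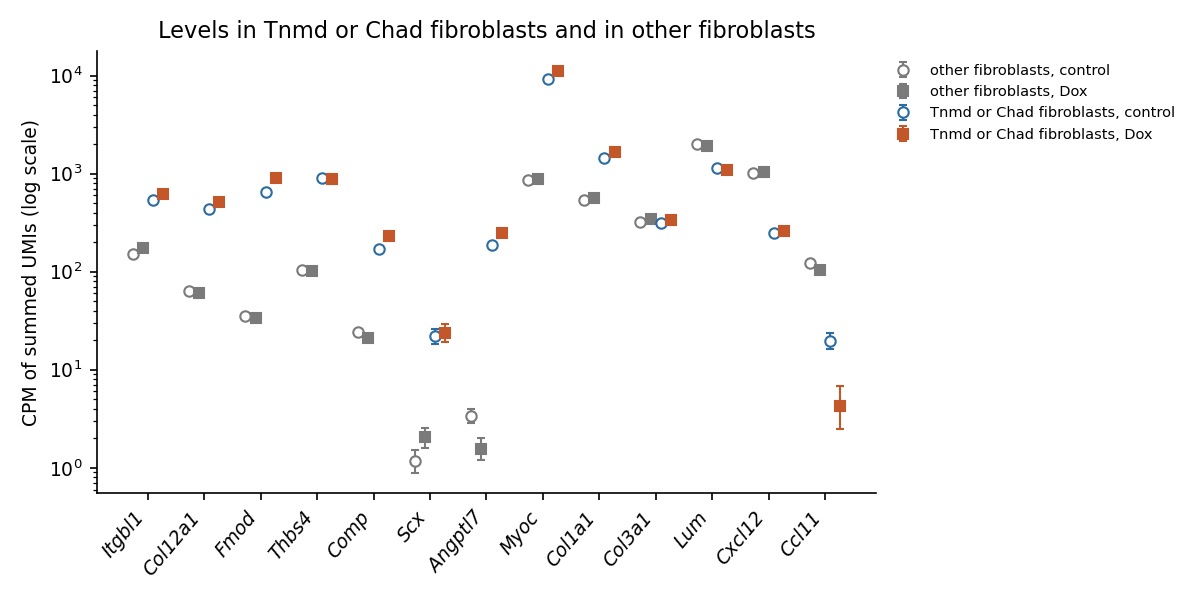
CPM of summed UMIs (log axis) of 13 genes in Tnmd/Chad fibroblasts (coloured) and other fibroblasts (grey), with open circles for control and filled squares for Dox; bars are exact Poisson intervals and are smaller than the symbol for abundant genes. Itgbl1, Col12a1, Fmod, Thbs4, Comp, Scx, Angptl7, Myoc and Col1a1 sit higher in Tnmd/Chad fibroblasts, Col3a1 at about the same level, and Lum, Cxcl12 and Ccl11 lower.

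Over all 12617 genes with at least 50 UMIs in Tnmd/Chad and other fibroblasts of each library, 214 (1.7%) had a log2 ratio of CPM of 1 or more over other fibroblasts in both libraries, called past 1 here, and 417 (3.31%) had a ratio of -1 or less in both, called past -1. Other fibroblasts held most of the UMIs, so a sparse gene could reach 50 UMIs through them alone and then had to lie low in Tnmd/Chad fibroblasts, and the counts past -1 are a description. Against other fibroblasts matched on depth the counts were 132 and 228. The median log2 ratio over all genes was -0.03 in control and -0.04 in Dox. Of the tendon list of 24 genes, 22 had enough UMIs, and 14 of these were past 1 and 0 past -1. The list had a median of 1.60 in control and 1.69 in Dox. The list was chosen with earlier results of these data known and is not independent evidence of its direction.

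Among the tendon genes, the transcription factor gene Scx (scleraxis), which marks tendon progenitors, stood at 21.9 CPM (121 UMIs) against 1.17 CPM in control and at 23.7 CPM (94 UMIs) against 2.04 CPM in Dox. Its log2 ratio of CPM was 4.22 (3.75 to 4.72) and 3.54 (3.09 to 4.0). Mkx, the gene of the tendon homeobox factor Mohawk, stood at 45.0 against 17.3 CPM in control and at 51.3 against 17.2 CPM in Dox, log2 ratios of 1.38 and 1.58. Scx and Mkx were thus both higher in the Tnmd/Chad fibroblasts of either library, and the median cell held 0 UMIs of Scx. Egr1 and Egr2, zinc-finger factors that act in tendon and also answer to tissue handling, did not follow them and had log2 ratios of -0.57 and -0.68 in control and -0.53 and -0.86 in Dox.

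Several genes of matrix proteins on the tendon list were higher too. Fmod (fibromodulin, chr1:134037254-134048277, plus strand), which regulates collagen fibril thickness, stood at 647 against 35.1 CPM in control and 896 against 33.8 CPM in Dox, log2 ratios of 4.20 (4.12 to 4.29) and 4.73 (4.64 to 4.82). In Dox, 1 cell held 364 of its 3549 UMIs. Thbs4 (thrombospondin 4) stood at 897 against 104 CPM in control and 890 against 100.5 CPM in Dox, log2 ratios of 3.11 and 3.15. Comp (cartilage oligomeric matrix protein), which links collagens, stood at 169 against 24.4 CPM in control and 229 against 21.2 CPM in Dox, log2 ratios of 2.79 and 3.43. All 3 were higher in both libraries, and the median cell held 2 UMIs of Fmod in either library but 0 of Comp. Angptl7 (chr4:148495183-148500460, minus strand), a secreted angiopoietin-like factor, had the largest log2 ratios of the list, 5.80 (5.56 to 6.05) in control and 7.29 (6.91 to 7.71) in Dox, from 188 against 3.38 CPM and 247 against 1.57 CPM. It was not spread evenly, since the 5 cells with the most UMIs held 24.9% of its UMIs in control and 36.0% in Dox. Cilp2 (4.85 and 4.67), Prg4, the gene of lubricin (3.61 and 2.52), Tnc, the gene of tenascin C (2.78 and 2.53), and the Wnt inhibitor gene Wif1 (2.50 and 2.71) also had log2 ratios over 2 in both libraries. Igfbp6, Ptgis, Fibin and Clec11a were between 1.31 and 1.83 on the same scale. Col11a1 (0.83 in both libraries), Crispld1, Sema3a and Thbs2 were between 0.62 and 1.0, and Dkk3 and Htra3 were below 0 in both libraries.

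**Figure D3:**
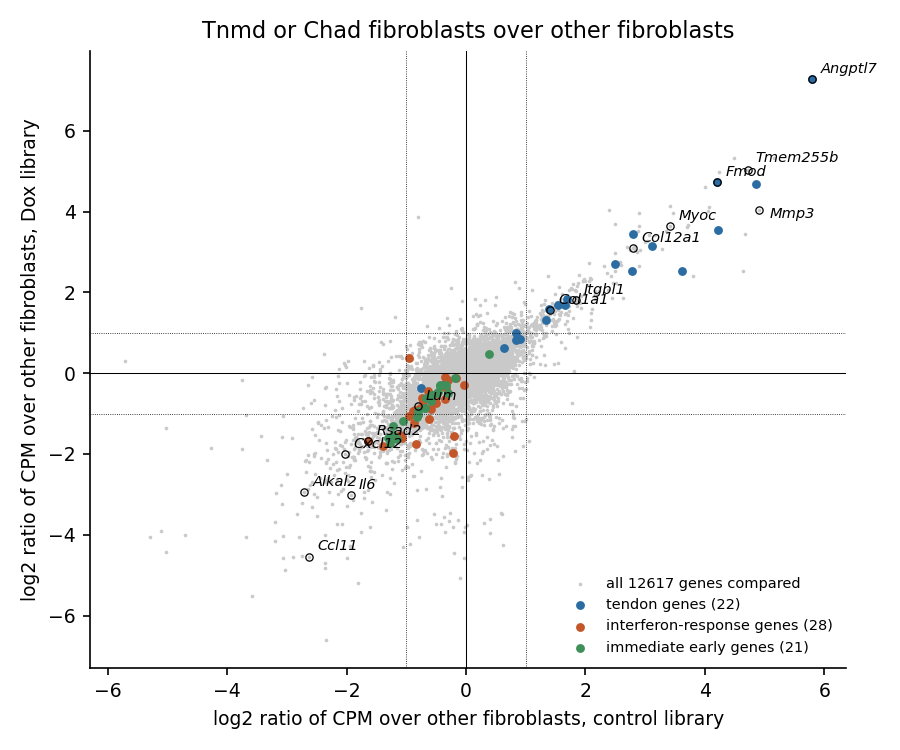
log2 ratio of CPM of Tnmd/Chad fibroblasts over other fibroblasts in the control library (x axis) and in the Dox library (y axis) for 12617 genes (grey), with 22 tendon genes, 28 interferon-response genes and 21 immediate early genes coloured and dotted lines at -1 and 1. Of the tendon genes 14 lie past 1 on both axes, and none of the interferon-response or immediate early genes does.

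Fibrillar collagens differed by type. Col1a1 stood at 1438.5 against 542 CPM in control and 1651 against 563 CPM in Dox, log2 ratios of CPM of 1.41 and 1.55, and Col1a2 had 1.40 and 1.46. Col3a1, the gene of the type III collagen of loose connective tissue, stood at 314 against 318 CPM in control and 339 against 342.5 CPM in Dox, log2 ratios of -0.02 (-0.09 to 0.05) and -0.01 (-0.10 to 0.07). The type I genes were thus higher in both libraries while the interval for the type III gene held 0 in both. Col5a1 and Col5a2, whose product starts the type I fibril, had log2 ratios of 0.51 and 0.51 in control and 0.52 and 0.43 in Dox. Of the 9 fibrillar collagen genes compared, 2 were past 1 (median 0.51 and 0.43). Against the fibroblasts with high Myoc described below, 0 of 8 were past 1 and 0 past -1 (median 0.32 and 0.39). Col2a1, the cartilage collagen, had 2 UMIs (control) and 0 UMIs (Dox).

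Of 13 small leucine-rich proteoglycan genes, 5 were past 1 and 1 was past -1 in both libraries (median 0.79 and 0.87). Besides Fmod these were Omd (osteomodulin) with log2 ratios of CPM of 2.91 and 3.05, Aspn (asporin) with 2.16 and 2.04, Ogn (osteoglycin) with 1.48 and 1.65, and Bgn (biglycan) with 1.17 and 1.15. Lum stood at 1144 against 2008 CPM in control and 1085 against 1901 CPM in Dox, a log2 ratio of -0.81 in both, and Epyc (epiphycan) had -1.73 and -1.79. Within this family, Fmod and Omd were higher and Lum and Epyc lower than in all other fibroblasts, while Prelp (0.79 and 0.87) lay below the limit of 1. Lum was higher than in the fibroblasts with high Myoc described below. Of 12 genes of this family compared with those fibroblasts, 4 were past 1 and 0 past -1 (median 0.77 and 0.70). Epyc in Dox was at 0.39 (-0.26 to 1.08) against those, an interval that held 0.

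Other matrix groups were mixed. Of 22 other collagen genes 4 were past 1 and 7 past -1, with Col12a1 above and Col23a1 (-2.35 and -2.21) below. Col26a1 had 2 UMIs and Col4a6 had 4 in control, and in Dox they had 0 and 2, so that both entered the count past -1 through other fibroblasts. Of 18 elastic fibre genes 4 were past 1 and 1 past -1. The former were Ltbp2 (3.46 and 3.97), Mfap4 (1.25 and 1.45), Eln, the gene of elastin (1.14 and 1.23), and Fbln5 (1.13 and 1.21). Of 25 genes of collagen processing 1 was past 1, Sparc (1.41 and 1.58), whose product binds collagen. Of 9 cartilage genes compared 2 were past 1, Comp and Cytl1 (2.49 and 2.54), and 3 past -1, and 2 of the 20 on the list, Matn1 and Ucma, had 0 UMIs. Of 21 adhesive glycoprotein genes 5 were past 1, led by Ccn5 (3.72 and 3.67), Thbs4 and Fn1, the gene of fibronectin (3.29 and 3.09), and 2 past -1. Of 22 protease and inhibitor genes 4 were past 1, led by Mmp3, the gene of stromelysin 1 (4.91 and 4.05), and 2 past -1, among them the aggrecanase gene Adamts4 (-2.07 and -2.20). Mmp3 rested on few cells, since 5 Tnmd/Chad fibroblasts held 35.0% of its UMIs in control and 50.3% in Dox. The medians of these lists ran from -0.51 for cartilage genes to 0.46 for collagen processing in control and from -0.95 to 0.51 in Dox. Fewer of these genes had enough UMIs against the fibroblasts with high Myoc described below. There 2 of 17 other collagen genes, 2 of 16 elastic fibre genes, 2 of 24 genes of collagen processing and 1 of 6 cartilage genes were past 1. None of these was past -1. Of 18 adhesive glycoprotein genes 4 were past 1 and 1 past -1, and of 21 protease and inhibitor genes 3 and 0.

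Signalling lists had members on both sides. Of 22 TGF-beta and BMP genes 5 were past 1 and 1 past -1 (median 0.29 and 0.35), with Inhba, an activin subunit gene, at log2 ratios of CPM of 2.47 and 2.24, the BMP antagonist gene Chrdl1 at 2.08 and 2.32, Bmp6 at 1.84 and 2.03, and Gdf15 at -1.40 and -1.70. Of 13 Wnt modulators 2 were past 1 and 2 past -1 (median -0.34 and -0.17), with the inhibitor genes Sfrp2 (2.90 and 3.95) and Wif1 above and Wnt6 (-2.18 and -2.21) and Sfrp4 (-2.54 and -1.52) below. Of 15 retinoic acid genes 2 were past 1, both of them genes of enzymes that degrade retinoic acid, Cyp26b1 (3.42 and 4.13) and Cyp26a1 (2.03 and 2.18). The 2 past -1 were genes of enzymes that can make it, Aldh1a3 (-2.10 and -2.92) and Cyp1b1 (-1.74 and -1.83), and the list's median was -0.42 in control and -0.52 in Dox. Of 18 general fibroblast genes 3 were past 1 and 3 past -1 (median -0.01 and -0.14), with Pi16 above (1.66 and 1.46) and Dpt and Clec3b below. Clec3b stood at 7.23 against 49.3 CPM in control and 6.57 against 62.5 CPM in Dox, and Dpt had 2 UMIs in control but none in Dox. Against the fibroblasts with high Myoc described below, fewer genes had enough UMIs. There 1 of 21 TGF-beta and BMP genes, 2 of 7 Wnt modulators and 1 of 13 retinoic acid genes were past 1, and 0 past -1. Of 16 general fibroblast genes 0 were past 1 and 2 past -1 there.

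Of 12 genes known from the aqueous outflow tissue and the sclera, 6 were past 1 and 0 past -1 (median 1.05 in both libraries). Against the fibroblasts with high Myoc described below, 5 of 11 were past 1 and 0 past -1 (median 0.63 and 0.66). Myoc, Angptl7, Chil1 and Cyp2f2 were in front. Myoc (chr1:162639155-162649693, plus strand), the gene of the secreted glycoprotein myocilin, stood at 9296 against 869 CPM in control and 11057 against 882 CPM in Dox, log2 ratios of 3.42 (3.40 to 3.44) and 3.65 (3.63 to 3.67). Its median was 45 UMIs per Tnmd/Chad fibroblast in control and 53 in Dox, and 0 per other fibroblast in both. Chil1, a chitinase-like lectin gene, stood at 9446 against 724 CPM in control and 8642 against 705 CPM in Dox. The range among the cells was wide, with a lowest Myoc level of 0 CPM, a median of 6594 and a highest of 78569 CPM in control, and 0, 7786 and 63698 CPM in Dox.

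Since Myoc set many of these cells apart, other fibroblasts with a Myoc level of at least 2000 CPM were used as a second comparison group, a choice made after the data had been seen. All Tnmd/Chad fibroblasts were set against it, also those below this level, so the groups compared were not matched on Myoc. In control, 428 of 642 Tnmd/Chad fibroblasts were at or above this level, 66.7% (62.9 to 70.3), and in Dox 316 of 455, 69.5% (65.0 to 73.7), against 8.76% and 9.57% of other fibroblasts. The level runs through a range rather than a gap, with 40 Tnmd/Chad and 185 other fibroblasts of control between 1500 and 2500 CPM, and 18 and 150 of Dox. Of the fibroblasts within the Kera and Cxcl limits and above the level, 1197 in control and 922 in Dox, 35.8% and 34.3% were Tnmd/Chad fibroblasts. Against the 769 and 606 other fibroblasts above the level, 74 of 9330 genes were past 1 and 21 past -1, and the tendon list had a median of 0.62 in control and 0.61 in Dox with 7 of 21 genes past 1. There were 61 genes past 1 against both comparison groups, 28.5% of the 214 against all other fibroblasts, of which 174 had enough UMIs for the Myoc comparison, and 82.4% of those against the Myoc group. There were 10 genes past -1 against both, 2.4% of the 417, of which 160 had enough UMIs, and 47.6% of the 21.

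The tendon genes split under this comparison. Fmod kept log2 ratios of CPM of 3.04 (2.88 to 3.20) and 3.29 (3.13 to 3.46), Angptl7 3.20 and 4.83, Scx 2.88 and 2.75, Cilp2 3.19 and 2.52, Wif1 2.10 and 2.61, and Tnc 2.08 and 2.14. Fibin was the 7th past 1, at 1.84 and 2.01. Thbs4 was at 0.86 and 0.83 and Comp at 0.84 and 1.76, while Igfbp6 (0.00 and 0.07) and Mkx (0.02 and 0.14) were at about the level of the Myoc group, and Crispld1 was below it (-0.55 and -0.92). Of the markers, Col12a1 was at 1.49 and 1.73 and Itgbl1 at 0.54 and 0.61. Col1a1 was at 0.96 and 1.12, and Lum turned to 0.59 and 0.50, so that Lum was lower than in all other fibroblasts but higher than in those with Myoc. The plot of the tendon genes shows both comparisons side by side.

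Genes outside the lists led the order too. The 12 genes highest in both libraries with at least 50 CPM were Angptl7, Tmem255b (4.71 and 5.02), Bpifb1 (4.84 and 4.65), Fmod, Mmp3, Srpx2 (4.05 and 4.02), Ccn5, Chil1, Ltbp2, Myoc, Cyp2f2 (3.17 and 3.41) and Thbs4. The 12 lowest were Alkal2, a ligand gene of the receptor ALK (-2.71 and -2.94), Ccl11, Col23a1, Arrdc3 (-2.17 and -2.41), the nucleotide-sugar receptor gene P2ry14 (-2.17 and -2.64), Adamts4, the muscle filament gene Des (-2.06 and -2.87), Cxcl12, Inmt (-2.54 and -1.99), Cd24a (-1.98 and -2.66), Il6 and the lincRNA gene 1200007C13Rik (-1.90 and -2.08). Cxcl12, a chemokine gene of stromal cells, stood at 246 against 1003 CPM in control and 257 against 1033 CPM in Dox, log2 ratios of -2.03 and -2.01. Against the Myoc group, Inmt alone of these 12 was below -1 in both libraries, with -1.74 and -1.38, while P2ry14 had -0.75 and -1.33 and Cxcl12 had -0.23 and -0.37. Des turned sign in control (0.45, 0.08 to 0.83). So did Des (0.28, -0.27 to 0.84), Alkal2 (0.28, -0.12 to 0.68) and Col23a1 (0.40, -0.15 to 0.97) in Dox. In control 1200007C13Rik did too (0.0512, -0.23 to 0.34). The intervals of all but Des in control held 0.

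Inflammatory and early-response lists had most of their called genes past -1. Of 12 chemokine and cytokine genes 7 were past -1 and 1 past 1 (median log2 ratio of CPM -1.17 in control and -1.55 in Dox). Ccl11, the gene of eotaxin, stood at 19.7 against 122 CPM in control and 4.29 against 103 CPM in Dox, and Il33 was at -2.31 and -2.13. Cxcl14 was the exception, at 28.7 against 1.13 CPM in control and 11.6 against 1.07 CPM in Dox. It rested on few cells, since 5 held 42.8% of its UMIs in Tnmd/Chad fibroblasts of control and 54.3% in Dox, and 61.5% and 82.1% in other fibroblasts. Of 14 acute-phase genes 7 were past -1 and 0 past 1 (median -1.12 and -1.19), among them Cp, the gene of ceruloplasmin (-1.88 and -1.88), and Il6 (-1.93 and -3.02). Lrg1 and Saa3 each had 1 UMI in control but none in Dox, and entered the count through other fibroblasts. Of 28 interferon-response genes 4 were past -1 and 0 past 1 (median -0.67 and -0.88). Isg15, a ubiquitin-like gene of this response, stood at 129 against 279 CPM in control and 108 against 313 CPM in Dox, Irf7 was at -1.08 and -1.61, Ifit1 at -1.39 and -1.80, and Rsad2 at -1.64 and -1.68. Both groups had been held to the same UMI limit on Cxcl9 and Cxcl10. Tnmd/Chad fibroblasts were deeper, with a median of 8218.5 against 4800.5 UMIs in control and 8719 against 5397 in Dox. In CPM the limit was thus stricter for them, and its part in their lower interferon-response genes was not tested.

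Of 21 immediate early genes 6 were past -1 and 0 past 1 (median -0.68 in both libraries), with Nr4a1 at 1443 against 3378 CPM in control and 1254 against 3621 CPM in Dox, and Btg2 (-1.32 and -1.61), Fosl2 (-1.28 and -1.72) and Zfp36 (-1.22 and -1.30) beside it. Of 13 metallothionein and heat shock genes 2 were past -1, Mt1 (-1.22 and -1.24) and Mt2 (-1.18 and -1.23), and the list's median was -0.49 and -0.48. Of 24 p53 target genes 2 were past -1 and 0 past 1, with a median of -0.04 and -0.12, close to that of all genes. The 18 ribosomal protein genes (median 0.07 and 0.08) and the 9 proliferation genes compared (-0.08 and 0.25) had none past either limit. Against the Myoc group the 9 chemokine genes compared had medians of -0.15 in control and -0.01 in Dox and the 10 acute-phase genes -0.19 and -0.34. The median of the immediate early list was there -0.03 in control and -0.02 in Dox and that of the interferon list -0.43 and -0.47 over the 25 genes compared. Fewer genes of the chemokine, acute-phase and interferon lists had enough UMIs for that comparison, so their medians are over fewer genes than those against all other fibroblasts.

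Of the genes of activated fibroblasts, 6 of 11 were past 1 and 0 past -1 (median log2 ratio of CPM 1.86 and 1.83). Against the Myoc group 7 of 11 were past 1 (median 1.14 and 1.15). Acta2, the smooth muscle actin gene, stood at 1591 against 437 CPM in control and 924 against 261 CPM in Dox, and Tagln, the gene of transgelin, had log2 ratios of 2.42 and 2.40. These 2 genes are also markers of smooth muscle, whose list of 10 genes had 2 past 1 and 2 past -1 and summed to 3645 against 1427 CPM in control and 2438 against 1169 CPM in Dox, with Acta2 the most abundant. The smooth muscle myosin gene Myh11 was at 0.93 in control and -1.19 in Dox, and Des at -2.06 and -2.87. The UMIs of Acta2 were uneven, with a median of 1 per cell and 24.0% and 26.0% of all in 5 cells, and its log2 ratio was 1.82 in control and 2.31 in Dox after cells with many UMIs of another cell type had been left out. Fn1, Tnc and Ltbp2 of the same list are not smooth muscle markers on the lists used.

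Markers of other cell types were measured in the same cells. The 8 RPE genes compared had a median of -0.68 and -0.61 with none past either limit, and the list of 9 summed to 2119 against 3601 CPM in control and 3385 against 5388 CPM in Dox, with Ttr, the gene of transthyretin, the most abundant. Of 10 melanocyte genes 1 was past -1 and 0 past 1, and they summed to 1828 against 2562 CPM in control and 389 against 681 CPM in Dox. The 11 macrophage genes had none past either limit and summed to 739 against 716 CPM in control and 126 against 351 CPM in Dox. Endothelial genes (4 of 10 past -1, sum 274 against 609 CPM in control and 285 against 620 CPM in Dox, Emcn the most abundant), Schwann cell genes (1 of 6 past -1, S100b the most abundant) and lymphocyte genes (1 of 7 past -1, Ptprc the most abundant) were not higher. Of 13 skeletal muscle genes 3 had enough UMIs to compare, 1 of them, Des, was past -1, and 5, Myh4, Myh13, Pax7, Myod1 and Myf5, had 0 UMIs in either library. The others compared were Tnni2 (0.32 and -0.79) and Tnnt3 (-0.15 and 0.37). No gene of the rod photoreceptor list had enough UMIs to be compared.

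The cells were split by the genes of the rule, as a description, since 0 UMIs of a gene in a cell with few UMIs of either does not show that the gene is off. In control, 330 cells (51.4%, 47.5 to 55.3) had UMIs of both genes, 125 (19.5%, 16.5 to 22.7) of Tnmd only and 187 (29.1%, 25.6 to 32.8) of Chad only. In Dox, 214 (47.0%, 42.4 to 51.7) had both, 65 (14.3%, 11.2 to 17.8) Tnmd only and 176 (38.7%, 34.2 to 43.3) Chad only. The intervals for Chad only did not overlap between the libraries, those for Tnmd only did, and 1 library each leaves this difference without a test. The 3 classes differed in depth, with median UMIs of 9537 for Tnmd only, 7095 for Chad only and 8603.5 for both in control, and 10199, 7554 and 9054 in Dox. After each cell had been thinned to 2000 UMIs, 22.1% of the cells with a UMI of either gene had both in control and 19.97% in Dox.

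Between the cells with Tnmd only and those with Chad only, 8 of 5049 genes (0.158%) were higher by a log2 ratio of CPM of 1 or more with Tnmd in both libraries and 4 (0.0792%) with Chad. Fmod stood at 483 CPM with Tnmd only and 203 CPM with Chad only in control, and at 946 and 296 CPM in Dox, log2 ratios of 1.25 (1.04 to 1.46) and 1.67 (1.49 to 1.86). On the same side, Ccnd1, the gene of cyclin D1, had 1.22 and 1.62, Ltbp2 1.19 and 1.36, the tetraspanin gene Tspan6 1.15 and 1.56, Svep1 1.13 and 1.18, and Penk, the gene of proenkephalin, 1.02 and 1.28. Cthrc1 (0.92 and 1.93) and Htra1 (0.91 and 1.27) were below 1 in control and were not in that count. The genes named on either side are those with the largest ratios at 50 CPM or more, not the counted genes as such.

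On the Chad side, Alpl, the gene of tissue-nonspecific alkaline phosphatase, stood at 270 CPM with Chad only and 109 CPM with Tnmd only in control, and at 216 and 86.0 CPM in Dox, log2 ratios of -1.30 (-1.60 to -1.01) and -1.32 (-1.76 to -0.92). Ifitm1 had -1.84 and -1.27, Gap43 -1.55 and -1.17, Fabp5 -0.82 and -1.92, Glis2 -0.79 and -1.14, Id2 -0.85 and -0.84, Clk4 -0.78 and -0.81 and Chst1 -1.01 and -0.73. Alpl and Ifitm1 stood at 421 and 195 CPM in other fibroblasts of control, above either class for Alpl. Of the markers, Col12a1 was 397 against 190 CPM in control and 359 against 200.3 CPM in Dox, higher with Tnmd, and Itgbl1 had 0.59 (0.42 to 0.77) in control and 0.24 (0.04 to 0.43) in Dox. Angptl7 changed sides, with a log2 ratio of 1.27 in control and -1.49 in Dox, and so did Sfrp2, with 3.81 (3.17 to 4.60) and -0.77 (-1.30 to -0.28). The macrophage gene Lyz2 stood at 70.5 CPM with Tnmd only and 298 CPM with Chad only in control, and its part in these differences was not tested. Over all Tnmd/Chad fibroblasts, 5 cells held 39.9% of the UMIs of Sfrp2 in control and 41.5% in Dox. For Angptl7, 5 cells held 24.9% and 36.0%. How far these cells set the side of either gene was not tested. Sfrp2 and Lyz2 were chosen after their values had been seen.

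Dox was then compared with control within the Tnmd/Chad fibroblasts. Of 9950 genes with at least 50 UMIs over both libraries, 19 (0.191%) had a log2 ratio of CPM of 1 or more and 127 (1.28%) of -1 or less, and the median over all genes was 0.01. In other fibroblasts the same limits gave 36 and 299 of 13798 genes. With 1 library each, these are differences between 2 pools of cells.

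The genes lowest in Dox were led by markers of other cell types. Among genes with 50 CPM, the 12 lowest were the class II antigen genes H2-Eb1 (-3.78), Cd74 (-3.73), H2-Aa (-3.16) and H2-Ab1 (-2.46), the smooth muscle gene Myh11 (-3.32), the pigment cell genes Pmel (-2.84), Ednrb (-2.48), Tyrp1 (-2.35), Mlana (-2.27) and Cited1 (-2.18), the macrophage lysozyme gene Lyz2 (-2.29), and Sparcl1 (-2.23). Cd74 had 1698 UMIs (307 CPM) in control and 91 UMIs (23.0 CPM) in Dox, and 80.9% of the control UMIs lay in 5 of the 642 cells, with a median of 0 per cell. Of the UMIs of Myh11 in control 47.7% lay in 5 cells, and of those of Pmel 31.5%, with a median of 2 per cell in control and 0 in Dox. A few cells thus held most of the class II UMIs, whereas the pigment genes were spread over many cells. The same genes were lower in other fibroblasts of Dox too, with -1.05 for Cd74, -1.20 for Myh11 and -2.19 for Pmel. The melanocyte list had 8 of 9 genes past -1 (median -2.27, and -1.85 in other fibroblasts), the macrophage list 10 of 11 (median -1.89, and -0.85) and the smooth muscle list 2 of 10.

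In all, 21 of the 127 genes were on a list of another cell type and 56 (44.1%) were past -1 in other fibroblasts as well. Cells with 5 or more UMIs of Cd74, Lyz2 or Myh11, or 20 or more of Pmel, numbered 50 (7.79%) in control and 4 (0.879%) in Dox, and leaving them out, a choice made after the data had been seen, left 47 genes past -1, of which 45 were among the 127. Without them 6 of 8 melanocyte genes were still past -1 (median -1.61), but 1 of 9 macrophage genes (median -0.50) and 0 of 9 smooth muscle genes (median -0.15) were. These cells were picked by genes of the same lists, so the values are a description and the lists are not set against each other by them. An alternative that dropped the likeliest doublets by score left 67 genes past -1.

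Genes that remained below -1 without those cells included protease, cytokine and interferon-response genes. Which kind of cell made their RNA was not tested. Mmp3 had 1588 UMIs (287 CPM) in control and 330 UMIs (83.3 CPM) in Dox, a log2 ratio of CPM of -1.78 (-1.96 to -1.61), and -1.79 without those cells, against -0.92 in other fibroblasts. Ccl11 had 109 UMIs in control against 17 in Dox, a log2 ratio of -2.16 (-3.03 to -1.45) against -0.25 in other fibroblasts, and Cxcl14 had 159 and 46 UMIs, a log2 ratio of -1.30 against -0.06. Il6 had -1.13 (-1.77 to -0.56) against -0.04 in other fibroblasts, Cxcl2 had -2.14 against -0.42, and the interferon-response gene Usp18 had -1.31 (-1.84 to -0.82) against 0.04. For these genes the counts were small or lay in few cells, with 60.6% of the Ccl11 UMIs of control and 35.0% of those of Mmp3 in 5 cells, and 49.9% of those of Cxcl2. Usp18 was the most even, with 19.3% in 5 cells.

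**Figure D4:**
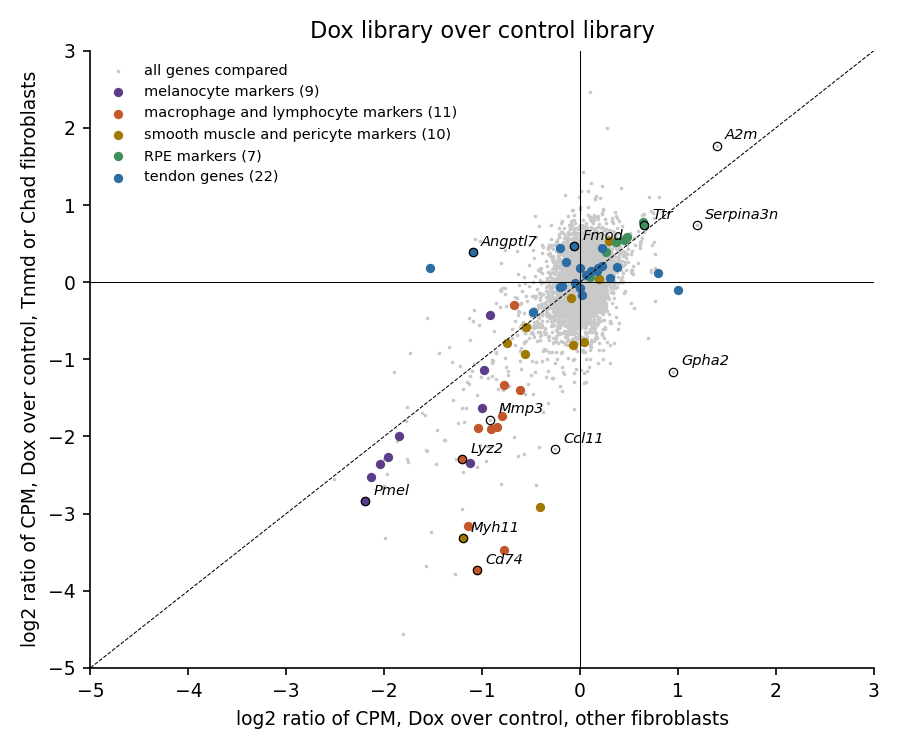
log2 ratio of CPM of Dox over control in other fibroblasts (x axis) and in Tnmd/Chad fibroblasts (y axis) for 9946 genes (4 more lie outside the axes), with markers of other cell types and tendon genes coloured; the dashed line marks equal ratios. Melanocyte, macrophage and smooth muscle markers extend down to -3.73, and most tendon genes lie near 0 on both axes.

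The genes higher in Dox had smaller ratios. Among genes with 50 CPM, the 12 highest were Slc49a4 (0.89), Pcsk1n (0.84), the keratin gene Krt18 (0.84), Rdh5 (0.78), Ttr (0.74), Serpina3n (0.74), Trf, the gene of transferrin (0.67), Rgr (0.58), Rab12 (0.56), Igfbp2 (0.56), Rlbp1 (0.54) and Kcnj8 (0.54). Rdh5, Ttr, Rgr and Rlbp1 are RPE genes, and the 7 RPE genes compared had a median of 0.54 in Tnmd/Chad fibroblasts and 0.44 in other fibroblasts. Ttr had a median of 10 UMIs per cell in control and 18 in Dox, so that its difference was spread over the cells. Igfbp2 was uneven, since 1 Dox cell held 146 of its 851 UMIs. For this gene 5 cells held 41.1% of the UMIs in Dox and 33.5% in control. Serpina3n, an acute-phase protease inhibitor gene, stood at 79.9 CPM in control and at 133 CPM in Dox, and its log2 ratio in other fibroblasts was 1.19.

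Less abundant genes had larger ratios, some of them from single cells. A2m, the gene of alpha-2-macroglobulin, had 73 UMIs (13.2 CPM) in control and 179 UMIs (45.2 CPM) in Dox, a log2 ratio of CPM of 1.77 (1.38 to 2.19) against 1.39 in other fibroblasts, with at most 3 UMIs in a cell. The Wnt antagonist gene Frzb had 24 and 38 UMIs, a log2 ratio of 1.14 (0.37 to 1.95) against -0.15 in other fibroblasts. It had at most 2 UMIs in a cell. By contrast, 1 Dox cell held 103 of the 104 UMIs of Elobl, which had 6 UMIs in control, and 1 Dox cell held all 76 UMIs of C1qtnf3, which had 0 in control. Elobl, C1qtnf3, Frzb, A2m and the genes from Mmp3 to Usp18 named above as lower in Dox were chosen after their values had been seen.

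None of the 22 tendon genes was past 1 or -1 in Dox over control, with a median log2 ratio of CPM of 0.14 against 0.01 in other fibroblasts, and the intervals of 9 lay above 0 and of 2 below 0. Fmod had 0.47 (0.40 to 0.54) against -0.06 in other fibroblasts, Comp 0.44 (0.31 to 0.57) against -0.20, Angptl7 0.39 (0.27 to 0.52) against -1.10, and Wif1 0.44 (0.03 to 0.85) against 0.23. Thbs4 (-0.01), Scx (0.12) and Mkx (0.19) had intervals that held 0. Col12a1 had 0.23 (0.14 to 0.31), Itgbl1 0.18 (0.10 to 0.26), Col1a1 0.20 (0.15 to 0.25) and Myoc 0.25 (0.23 to 0.27). Acta2 had -0.78 and Tagln -0.58, against -0.75 and -0.55 in other fibroblasts. Both are also on the smooth muscle list, where Myh11 had -3.32 and Cnn1 -2.91. That list of 10 genes had a median of -0.78. Without cells with many UMIs of another cell type its median was -0.15 over 9 genes. The 5 cells with the most UMIs held 34.1% of the UMIs of Comp in Dox and 16.8% in control, and 21.1% and 9.05% of those of Fmod, of which 1 Dox cell held 364 of 3549.

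Of the lists tied to the drug or to inflammation, the 20 p53 target genes compared had a median log2 ratio of CPM of -0.01 with 1 past -1, Gdf15, and 0 past 1. Cdkn1a, the gene of the cell cycle inhibitor p21, stood at 198 CPM in control and at 167 CPM in Dox. The 25 interferon-response genes had a median of -0.08 (0.06 in other fibroblasts) with 1 past -1, Usp18. The 10 acute-phase genes had a median of -0.12 with A2m past 1 and Il6 past -1, and the 10 chemokine genes had a median of -0.38 (-0.06 in other fibroblasts) with 3 past -1. The 21 immediate early genes had a median of 0.00 with none past either limit. Among matrix lists the medians were 0.11 for 8 fibrillar collagens, 0.19 for 12 leucine-rich proteoglycans, 0.15 for 16 elastic fibre genes and 0.11 for 24 genes of collagen processing, with none past 1 or -1. The intervals lay above 0 for 4, 6, 9 and 12 of these genes and below 0 for 0, 1, 0 and 1. Of 18 adhesive glycoprotein genes 1 was past -1 (median 0.02) and of 22 protease and inhibitor genes 2 (median 0.01).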

How the data were processed

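The deposited files held UMI counts per gene and cell barcode, which the authors made with Cell Ranger (version 4.0.0 per the file headers, while the study's methods name a later version as well) on mm10 from 5' libraries (10x Genomics) of pooled cells, with barcodes called as cells by that program. The annotation version behind the counts was not given in the sources used here, and 0 columns of other samples were present. Cells with over 500 UMIs, 200 to 6000 genes and a mitochondrial share below 20% were kept (20189 in control, 15438 in Dox). UMIs were summed over the cells of a group and library and divided by their total (CPM). Because each condition was 1 library, genes were counted by size, a log2 ratio of at least 1 or at most -1, with at least 50 UMIs, and no p-value was computed. Doublets were not removed. Scrublet (scanpy 1.11.5) gave a median score of 0.147 in control and 0.113 in Dox for Tnmd/Chad fibroblasts, against 0.223 and 0.183 for other fibroblasts, and an alternative left out the 3261 and 1907 cells with the highest scores. The members and the 33 gene lists (493 genes, 491 of them in the files) were chosen with earlier results of these data known. Named genes were the markers, any compared gene of the tendon, fibrillar collagen and proteoglycan lists, the 4 largest ratios of each other list, and the 12 highest and 12 lowest of each comparison (8 each way between Tnmd and Chad cells) with at least 50 CPM. Genes such as Acta2, Fn1, Cdkn1a, Cxcl14 and A2m that a count turned on were also named, after their values were seen. Counts of 12617 genes were simulated with Poisson error for the comparison with other fibroblasts. In them 200 genes were changed by known folds beyond the limit of a call. Of these 97% were recovered, 7 unchanged genes were called, and intervals held the true ratio in at least 94% of genes. The simulation left out the spread between cells that the real counts have, so it checks the calculation and not the reliability of the calls. Python 3.11.15 was used with pandas 2.3.3, scipy 1.17.1 and numpy 2.4.6. Promoters came from RefSeq GRCm38.p6.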

Additional observations from a re-analysis of the deposited data

Results flagged for a closer look

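Of 387 genes of the lists or named here for which Dox was set against control in both kinds of fibroblast, 15 had intervals on opposite sides of 0 in Tnmd/Chad and other fibroblasts, and the difference between the 2 groups of cells was not tested. Higher in Dox in Tnmd/Chad fibroblasts and lower in other fibroblasts were Angptl7 (log2 ratio of CPM 0.39 against -1.10), Sfrp2 (0.41 against -0.65), Comp (0.44 against -0.20), the lysyl hydroxylase gene Plod1 (0.42 against -0.15), Cryab (0.11 against -0.25), Aldh1a2 (0.25 against -0.05), Mfap4 (0.0846 against -0.12) and the interferon-inducible GTPase gene Iigp1 (0.86 against -0.46). Lower in Dox in Tnmd/Chad fibroblasts and higher in other fibroblasts were Cebpb (-0.29 against 0.07), Isg15 (-0.27 against 0.17), Ifit3 (-0.37 against 0.14), Ifi27l2a (-0.13 against 0.09), Nr4a1 (-0.20 against 0.10), Junb (-0.10 against 0.02) and Dusp1 (-0.0466 against 0.06). Several of these rested on few cells: 5 cells held 80.0% of the 30 Dox UMIs of Iigp1, 41.5% of those of Sfrp2 and 36.0% of those of Angptl7.

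Outside the fibroblasts as chosen here, 63 cells in control and 27 in Dox had at least 3 UMIs of Tnmd and Chad together, and these cells entered no comparison.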

How the results depend on the processing

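Depth limited the choice of cells and genes, since a rule of 3 UMIs favours deep cells, and 1 library per condition gave no measure of spread between mice. No paired analysis was possible because each condition had 1 library. With at least 2 UMIs of Tnmd and Chad, the share of fibroblasts was 7.20% in control and 7.30% in Dox, and 42.4% and 37.5% of the cells had both genes. With at least 5 UMIs the shares were 3.995% and 4.03%, those with both 64.2% and 55.2%, and the tendon list's median in control 1.73. With at least 500 CPM and 2 UMIs the shares were 4.72% and 4.80%, and 56.6% in control had both. After dropping the likeliest doublets by score, the shares were 6.13% and 6.09%, and 67 genes were past -1 in Dox. In cells thinned to 2000 UMIs, with the limit then lowered to 1 UMI of Tnmd and Chad and the Dcn limit set by CPM alone, the shares were 7.64% and 7.20%, the cells with both 22.1% and 19.97%, the genes past 1 and past -1 over other fibroblasts 142 and 207, and those past -1 in Dox 52. A comparison group matched on depth gave 132 and 228 genes, and tendon medians of 1.46 in control and 1.49 in Dox. Of the 130 single values of named genes over other fibroblasts, 84 left their interval with this group and 46 stayed within it.

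The group with Myoc of at least 2000 CPM, chosen after seeing the data, gave 74 and 21 genes and tendon medians of 0.62 in control and 0.61 in Dox. It turned the sign of Epyc in Dox (0.39), Alkal2 in Dox (0.28), Col23a1 in Dox (0.40), Des (0.45 in control and 0.28 in Dox) and 1200007C13Rik in control (0.0512). The intervals of these values held 0, except for Des in control. Without cells with many UMIs of another cell type, also chosen after seeing the data, 47 genes were past -1 in Dox. For Dox over control, the mean of the cells' own CPM gave 33 genes past 1, a minimum of 20 UMIs per gene gave 93 and 312 genes past 1 and -1, and a minimum of 200 gave 2 and 34. The causes of these shifts were not tested. The other 98 shares, counts and list medians recomputed under the 18 alternatives stayed within 1.5 times the count, or within the interval of counting error (for the tendon median, the medians of its genes' bounds). Of the values of single named genes, 2065 stayed within their interval, 595 left it, and the 6 given above were those that turned sign from 1 or more, or from -1 or less. Smaller ratios also turned, among them those of Lum and Crispld1 against the Myoc group.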
